A study of Mus musculus with 30 samples.

Results

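Transcripts of 44 of 47 listed cell cycle and DNA replication genes were measured in 30 E0771 tumors grown in the mammary fat pad of lean, obese and formerly obese mice. The list was split by phase into 24 measured genes that license and copy DNA and 20 measured genes that run mitosis, and each gene was read from its brightest probe set among the 19505 genes measured. The other 3 genes on the list were not analysed here. E0771 is a mouse mammary carcinoma line, and its cells were injected into the 4th mammary fat pad of adult female C57BL/6NCrl mice 25 weeks after the first diet was assigned. Each group gave 6 tumors, with 1 array per tumor and 1 mouse per tumor per the labels. CON-LFD mice ate a low-fat control diet throughout and were never obese. DIO-HFD mice became obese on a 60% high-fat diet and stayed on it. DIO-VSG mice were made obese on the same diet, then had a vertical sleeve gastrectomy, surgery that leaves a narrow tube of stomach, and ate the low-fat diet. DIO-CCR and DIO-ICR mice were also first obese and then lost weight by chronic calorie restriction, with the same cut every day, or by intermittent restriction, with a mild cut on most days and a severe one on the others. Every mouse without gastrectomy had a sham operation, and all tumors came from the 1 cell line. Values are log2 expression levels, so a difference of 1 is a doubling of signal, and levels are compared between tumors for a gene and never between genes.

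A dividing cell copies its DNA once and then separates the copies. In G1 phase cyclin E and the E2F transcription factors open the way to S phase, where the MCM helicase, loaded at origins by Cdc6 and Cdt1 and completed by Cdc45 and the GINS complex, unwinds DNA for the polymerases. In mitosis cyclin A and cyclin B with Cdk1, the Polo and Aurora kinases, the spindle checkpoint, kinesin motors and the anaphase-promoting complex move the chromosomes apart. Replication genes are known to carry E2F sites in their promoters. Many mitosis genes instead carry a cell cycle homology region (CHR), bound by the DREAM and MuvB complexes, often downstream of CCAAT boxes. In tumors these transcripts are widely used as a measure of proliferation, with Mki67 as the best known marker.

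Promoter windows were read from RefSeq on GRCm38.p6, 250 bases before and 50 after a transcript start that RefSeq lists, for the 36 of 44 members that have an entry. The E2F core was searched as TTCCCGC or TTGGCGC, the CHR as TTTGAA or TTCGAA, and CCAAT as written, each on both strands. An E2F core lay in 10 of 19 windows of replication genes (52.6%) and in 2 of 17 windows of mitosis genes (11.8%), against 6.93% of the first windows of all 27025 genes in the table. A CHR lay in 4 of 19 replication windows (21.1%) and in 14 of 17 mitosis windows (82.4%), against 19.4% of all genes. CCAAT was found in 68.4% of replication and 88.2% of mitosis windows, against 37.9% of all genes. All 14 mitosis windows with a CHR also held CCAAT, as did all 4 replication windows with a CHR, a pair found in 7.7% of all genes. Of the matches, 9 of 15 E2F cores in replication windows and 14 of 21 CHR matches in mitosis windows lay before the start, the others after it. The 2 classes differed in the letters around the start, and a match is a description of sequence and no measure of binding. The replication windows with an E2F core were those of E2f2, E2f8, Cdc6, Cdt1, Mcm3, Mcm5, Mcm6, Gins3, Prim1 and Rrm1. The mitosis windows without a CHR were those of Mybl2, Cenpe and Birc5.

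**Figure D1:**
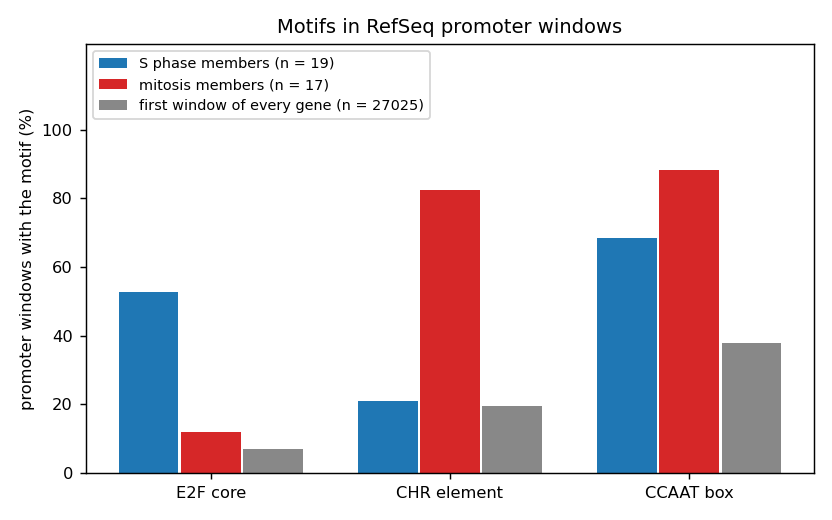
Share of promoter windows (300 bases) that hold each motif on either strand, in percent, for 19 replication genes (S phase, blue), 17 mitosis genes (red) and the first window of every gene (grey). The E2F core is at 52.6% in blue and 11.8% in red, while the CHR is at 21.1% in blue and 82.4% in red.

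The windows of 5 of the 12 members with the smallest p over the groups are shown, 2 of replication and 3 of mitosis genes. They were taken in the order of that p within each class among members with an entry, which Ccna2 and Aurkb lack. Each is printed 5′ to 3′ on the strand of the gene, with every motif match in capitals. Gins3, a subunit of the GINS complex, lies at chr8:95633309-95633608 on the plus strand and holds 1 E2F core (other strand) at -41, 1 CHR at -28 and CCAAT at -144 (other strand) and -124, where positions are those of the leftmost base and -1 is the base before the start.
Gins3: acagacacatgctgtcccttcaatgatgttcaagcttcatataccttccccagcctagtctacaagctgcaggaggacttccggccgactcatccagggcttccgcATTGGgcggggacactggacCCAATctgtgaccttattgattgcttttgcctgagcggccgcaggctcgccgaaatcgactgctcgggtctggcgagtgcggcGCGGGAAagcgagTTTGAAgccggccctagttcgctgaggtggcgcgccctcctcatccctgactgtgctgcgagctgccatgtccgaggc
Rrm2, the small subunit of ribonucleotide reductase, lies at chr12:24708004-24708303 on the plus strand and holds CCAAT at -50 with no E2F core or CHR of these letters.
Rrm2: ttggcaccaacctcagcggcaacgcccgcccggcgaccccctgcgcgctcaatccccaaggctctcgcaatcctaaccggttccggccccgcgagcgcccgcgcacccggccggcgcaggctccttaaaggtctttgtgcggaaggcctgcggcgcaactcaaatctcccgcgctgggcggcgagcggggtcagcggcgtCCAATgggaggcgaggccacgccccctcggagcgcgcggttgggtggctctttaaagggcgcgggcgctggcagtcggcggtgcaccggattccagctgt
Prc1, which bundles microtubules of the central spindle, lies at chr7:80294201-80294500 on the plus strand (the first of 2 listed starts, 6 bases inside the outermost start of the gene) and holds CCAAT at -37 and a CHR at -5.
Prc1: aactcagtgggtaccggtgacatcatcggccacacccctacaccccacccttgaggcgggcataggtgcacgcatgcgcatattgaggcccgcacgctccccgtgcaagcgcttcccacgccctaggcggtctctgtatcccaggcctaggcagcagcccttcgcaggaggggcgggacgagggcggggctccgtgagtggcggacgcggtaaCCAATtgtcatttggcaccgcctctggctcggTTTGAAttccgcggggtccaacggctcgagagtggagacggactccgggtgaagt
Mki67, the Ki-67 protein that coats mitotic chromosomes, lies at chr7:135716330-135716629 on the minus strand, anchored 71 bases inside the outermost start of the gene, and holds CCAAT at -188, -166 (other strand) and -141, CHR matches at -116 and -98 and an E2F core at -67.
Mki67: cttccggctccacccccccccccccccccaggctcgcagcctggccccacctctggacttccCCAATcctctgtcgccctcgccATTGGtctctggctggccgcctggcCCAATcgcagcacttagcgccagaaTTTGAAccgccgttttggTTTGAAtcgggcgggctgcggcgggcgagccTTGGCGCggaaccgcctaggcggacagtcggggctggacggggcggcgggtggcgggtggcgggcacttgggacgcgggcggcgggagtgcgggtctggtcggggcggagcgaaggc
Kif11, the kinesin motor that pushes spindle poles apart, lies at chr19:37376132-37376431 on the plus strand and holds CCAAT at -45 and a CHR at -19, both on the other strand.
Kif11: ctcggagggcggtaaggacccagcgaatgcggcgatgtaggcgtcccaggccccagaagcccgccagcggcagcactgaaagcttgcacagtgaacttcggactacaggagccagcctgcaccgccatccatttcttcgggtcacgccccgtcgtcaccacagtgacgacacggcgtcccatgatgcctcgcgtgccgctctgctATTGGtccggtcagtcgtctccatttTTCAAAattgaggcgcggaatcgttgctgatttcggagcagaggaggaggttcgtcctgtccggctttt
The window of Tk1, the next replication gene by that p, holds none of the letters searched.

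Over all genes the values ran from 1.48 to 18.57, and the medians of the arrays lay between 6.41 and 6.79, with 6.62 as the next highest. DIO-VSG 1 had the highest median (replicates are numbered within their group). Of 10 markers of mammary epithelium, Krt8 ran from 7.19 to 11.71 over the arrays and Cdh1 from 4.11 to 7.26. Krt18, Krt19 and Epcam had means of 4.38, 4.13 and 4.95, with their highest values of 8.24, 8.86 and 8.64 all in DIO-VSG 1. Krt5 and Krt14 had means of 4.21 and 4.76 and highest values of 9.05 and 8.93, both in CON-LFD 5, while Cldn3, Cldn7 and Elf5 never exceeded 4.79. The mean of the 10 centred markers was 2.18 in DIO-VSG 1 and at most 0.68 elsewhere. In CON-LFD against DIO-HFD 1 of the 10 passed as lower (limma adjusted p = 0.0296), while 8 were higher in sign. Lymph node genes exceeded their level in the middle array by 6.13 in DIO-VSG 1, by 2.83 in DIO-HFD 5 and by 1.35 in DIO-VSG 5. Skeletal muscle genes exceeded theirs by 5.77 in DIO-VSG 4, by 2.37 in CON-LFD 5 and by 1.85 in DIO-VSG 3. The mean of 8 neutrophil genes, centred on each gene's mean, ran from -0.14 to 3.10 in CON-LFD and 0.70 to 1.46 in DIO-VSG but from -1.61 to 0.28 in DIO-HFD, -1.19 to 0.18 in DIO-CCR and -1.48 to -0.04 in DIO-ICR. In bulk tumor RNA fewer dividing cells and less RNA per cell cannot be told apart.

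The first question was which of these genes differed among the 5 groups at all. Gins3 alone passed the limma F-test over 5 groups (F = 13.87, adjusted p = 0.00471, rank 9 of 19505 genes), so 1 of 44 members passed beside 1.64% of all genes. Prc1 followed with an adjusted p of 0.0535. An unadjusted p under 0.05 was found for 13 of 44 members (29.5%) and 15.3% of all genes. The spread of the members within groups was small, with a median standard error of a difference of 0.13 over members and 0.18 over all genes. DIO-HFD held the highest group mean for 17 of 20 mitosis genes and 9 of 24 replication genes, while it did so for 27.4% of all genes. The lowest mean of replication genes lay in CON-LFD for 14 of 24, against 24.2% of all genes. For mitosis genes it lay in DIO-CCR for 9 of 20, in CON-LFD for 7 and in DIO-VSG for 4. The shares of all genes there were 17.9%, 24.2% and 23.1%. Obese mice thus had the highest mean for most mitosis genes. CON-LFD most often had the lowest mean for replication genes, while for mitosis genes the lowest mean was split among DIO-CCR, CON-LFD and DIO-VSG.

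Gins3 was measured at 10.24 to 10.39 in CON-LFD (median 10.32). In DIO-HFD it lay between 10.65 and 11.14 (median 10.83). In DIO-VSG it lay between 10.37 and 10.59 (median 10.41). All tumors of CON-LFD and DIO-VSG were thus below all 6 obese tumors. In DIO-CCR it reached 10.69 to 11.10 (median 10.83), within the range of DIO-HFD and above every CON-LFD and DIO-VSG tumor. In DIO-ICR it lay between 10.32 and 10.80 (median 10.59), overlapping all other groups.

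Prc1 was measured at 11.20 to 11.86 in CON-LFD (median 11.45) and at 11.82 to 12.32 in DIO-HFD (median 12.05). The levels in DIO-VSG were 11.56 to 11.83 (median 11.74), those in DIO-CCR 11.50 to 11.91 (median 11.80) and those in DIO-ICR 11.69 to 12.02 (median 11.80). The lowest DIO-HFD tumor overlapped the highest tumors of each other group, and all 3 weight loss groups lay between the lean and the obese medians.

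**Figure D2:**
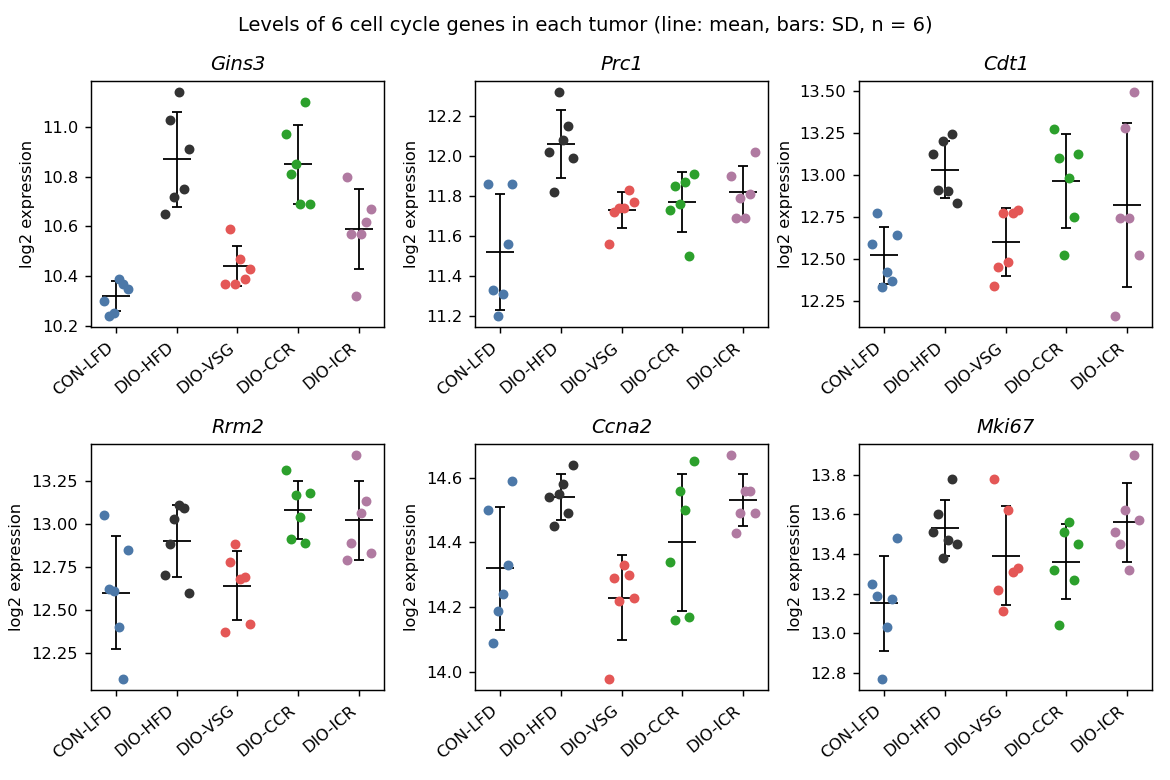
Log2 expression of Gins3, Prc1, Cdt1, Rrm2, Ccna2 and Mki67 in each of 30 tumors, by group on the horizontal axis; points are tumors, the line is the mean and the bars are the SD of 6 tumors. Gins3 lies between 10.24 and 10.39 in CON-LFD and between 10.65 and 11.14 in DIO-HFD, and in DIO-CCR it lies between 10.69 and 11.10; the vertical axes differ between genes and do not start at 0.

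Relative to tumors of obese mice, tumors of never obese mice had lower Gins3 and Prc1. Gins3 fell by 0.55 ± 0.09 (SE) on the log2 scale, a 1.46-fold lower signal (95% interval -0.74 to -0.36, limma adjusted p = 0.0035). Prc1 fell by 0.54 ± 0.11, also 1.46-fold (interval -0.77 to -0.32, adjusted p = 0.0119). These were 2 of 44 members in CON-LFD against DIO-HFD, beside 0.995% of all genes. At an unadjusted p under 0.05, 17 members were lower and 0 higher, while 7.95% of all genes were lower and 4.26% higher at that level. CON-LFD lay below every DIO-HFD tumor for Cdt1, Mcm4, Gins1, Gins3 and Aurkb, 5 of 44 members beside 1.18% of all genes, and above it for 0 members beside 0.518%. With the neutrophil score as a covariate, chosen after the data were seen, Gins3 was at -0.63 (adjusted p = 0.174) and Prc1 at -0.28 (adjusted p = 0.767), and 0 members passed. In a fit of these 2 groups alone Prc1 had an adjusted p of 0.0895.

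By role, all 7 genes of DNA synthesis and nucleotide supply were lower in sign in CON-LFD, as were 11 of 12 licensing and helicase genes and 4 of 5 G1/S regulators. The median change was -0.19 over 24 replication genes and -0.26 over 20 mitosis genes, against -0.04 over all genes, of which 57% were lower in sign. The exceptions among replication genes were E2f8, a repressor of the E2F family, and Cdc6. Among mitosis genes the exception was the checkpoint kinase Ttk, while the largest change after Prc1 that did not pass was that of Mki67 with Birc5, both at -0.38 (adjusted p = 0.141 and 0.17). The mitosis median was -0.15 with the neutrophil score as a covariate. Of 8 neutrophil genes 5 passed as higher in CON-LFD and 7 were higher at an unadjusted p under 0.05. Their score had a mean of 1.14 in CON-LFD and -0.92 in DIO-HFD, so score and group cannot be cleanly told apart in that fit. The part of neutrophils in the change of the cell cycle genes was thus not tested. Of 7 macrophage genes 0 passed in CON-LFD against DIO-HFD, while 6 were lower at an unadjusted p under 0.05, with a median of -0.63. Their part was not tested either.

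Tumors of the sleeve gastrectomy group had lower Gins3 than obese tumors. The change was -0.43 ± 0.09, 1.35-fold (interval -0.62 to -0.24, adjusted p = 0.0499). This was 1 of 44 members in DIO-VSG against DIO-HFD, beside 0.154% of all genes. At an unadjusted p under 0.05, 12 members were lower and 0 higher, beside 6.47% of all genes lower and 3.9% higher. The call lay at the threshold. Over 11 alternative settings the change ran from -0.51 to -0.39 and the adjusted p from 0.026 to 0.349, and the call was lost in 8, among them the fit without the 3 tumors with lymph node genes (adjusted p = 0.253) and the fit without the 3 with muscle genes (0.153). It was lost as well without any 1 of 25 of the 30 arrays. Of 8 neutrophil genes 2 passed as higher in DIO-VSG and 7 were higher at an unadjusted p under 0.05, with a median of 1.61, and with their score as a covariate Gins3 was at -0.51 (adjusted p = 0.349). That score did not overlap between DIO-VSG (0.70 to 1.46) and DIO-HFD (-1.61 to 0.28), so score and group cannot be told apart in this fit. DIO-VSG lay below every DIO-HFD tumor for Cdt1, Gins3, Rrm1, Ccna2 and Ccnb2, 5 of 44 members beside 0.497% of all genes, and above it for 0 members beside 0.385%.

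By role, the 6 mitotic entry genes had the lowest median in DIO-VSG, at -0.27, and the 7 synthesis genes the median nearest 0, at -0.04. All 20 mitosis genes and 20 of 24 replication genes were lower in sign in DIO-VSG, against 59.7% of all genes. The median change was -0.16 for replication and -0.23 for mitosis, and -0.05 for all genes. Ccna2, the cyclin of S phase and mitotic entry, was measured at 13.98 to 14.33 (median 14.26) in DIO-VSG and at 14.45 to 14.64 (median 14.54) in DIO-HFD. The groups did not overlap, and the difference of -0.32 ± 0.10 had an adjusted p of 0.2. Tk1, which salvages thymidine for DNA synthesis, had a median of 7.79 in DIO-VSG (lowest 6.96) and of 8.16 in DIO-HFD (highest 8.35), and the highest tumor of the first group and the lowest of the second were equal to 2 decimals. Its change of -0.51 ± 0.17 was the largest in size of this comparison and did not pass (adjusted p = 0.234). Rrm1, the large subunit of ribonucleotide reductase, was at 13.79 to 14.03 in DIO-VSG and at 14.10 to 14.19 in DIO-HFD. That difference was -0.23 ± 0.07 (adjusted p = 0.207). Without the lymph node tumors the medians were -0.15 for replication and -0.19 for mitosis.

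Chronic calorie restriction showed the widest gap between the phases, a description without a test. In DIO-CCR 19 of 20 mitosis genes were lower in sign than in DIO-HFD with a median of -0.22, but 14 of 24 replication genes were lower with a median of -0.0042, against 53.5% lower and a median of -0.02 over all genes. Of 12 adipocyte genes 0 passed in the same comparison, with a median of 1.47, 12 higher in sign and 10 at an unadjusted p under 0.05. With the adipocyte score as a covariate the medians were -0.20 for mitosis and 0.0024 for replication. Of the members 0 of 44 passed in DIO-CCR against DIO-HFD (lowest adjusted p = 0.175), beside 0.354% of all genes. At an unadjusted p under 0.05, 8 members were lower, beside 7.26% of all genes lower, and 1 was higher, beside 4.8% of all genes higher. The 8 lower genes were all mitosis genes, namely Aurka, Kif11, Cenpe, Plk1, Cenpf, Prc1, Top2a and Ube2c. The 1 higher gene was Prim1, the catalytic subunit of primase.

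Kif11 was measured at 13.06 to 13.56 (median 13.47) in DIO-CCR and at 13.69 to 13.95 (median 13.79) in DIO-HFD. It was the 1 member of 44 whose DIO-CCR tumors all lay below DIO-HFD, beside 0.728% of all genes, and 0 lay above, beside 0.431%. The difference was -0.39 ± 0.13 (interval -0.65 to -0.13, adjusted p = 0.175). Aurka, the Aurora kinase of the spindle poles, was at 10.44 to 11.32 (median 10.92) in DIO-CCR and at 11.14 to 11.52 (median 11.41) in DIO-HFD, with overlap. Its difference was -0.46 ± 0.15 (adjusted p = 0.175). Prim1 went the other way, with 13.30 to 13.47 (median 13.46) in DIO-CCR and 12.94 to 13.42 (median 13.11) in DIO-HFD. This difference of 0.27 ± 0.10 had an adjusted p of 0.216. Gins3 was at -0.01 ± 0.09 (interval -0.21 to 0.18), while Prc1 was at -0.29 ± 0.11 (adjusted p = 0.253).

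After intermittent calorie restriction the mitosis genes lay nearest to the obese tumors among the 4 groups. Replication genes were lower in sign for 12 of 24 with a median of -0.0025, and mitosis genes for 17 of 20 with a median of -0.12, against 55.6% and -0.03 over all genes. Adipocyte genes were again higher in sign, 12 of 12 with a median of 1.40, of which 1 passed, and with that score as a covariate the replication median was 0.0956 and the mitosis median -0.11. In DIO-ICR against DIO-HFD 0 of 44 members passed (lowest adjusted p = 0.231), beside 0.461% of all genes. At an unadjusted p under 0.05 there were 2 lower, Gins3 and Prc1, beside 5.99% of all genes lower, and 2 higher, Cdc6 and E2f2, beside 4.8% higher. E2f2, an activating E2F factor, was measured at 7.11 to 8.13 (median 7.42) in DIO-ICR. In DIO-HFD it was at 6.67 to 7.42 (median 6.81) and in CON-LFD at 6.17 to 7.07 (median 6.88). Its DIO-ICR tumors thus overlapped the obese tumors and lay above all lean ones. The difference from DIO-HFD was 0.52 ± 0.24 (adjusted p = 0.436). All 5 G1/S regulators were higher in sign in DIO-ICR, with a median of 0.07. No member of the 44 separated DIO-ICR from DIO-HFD without overlap, where 0.487% of all genes lay lower and 0.543% higher without overlap.

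**Figure D3:**
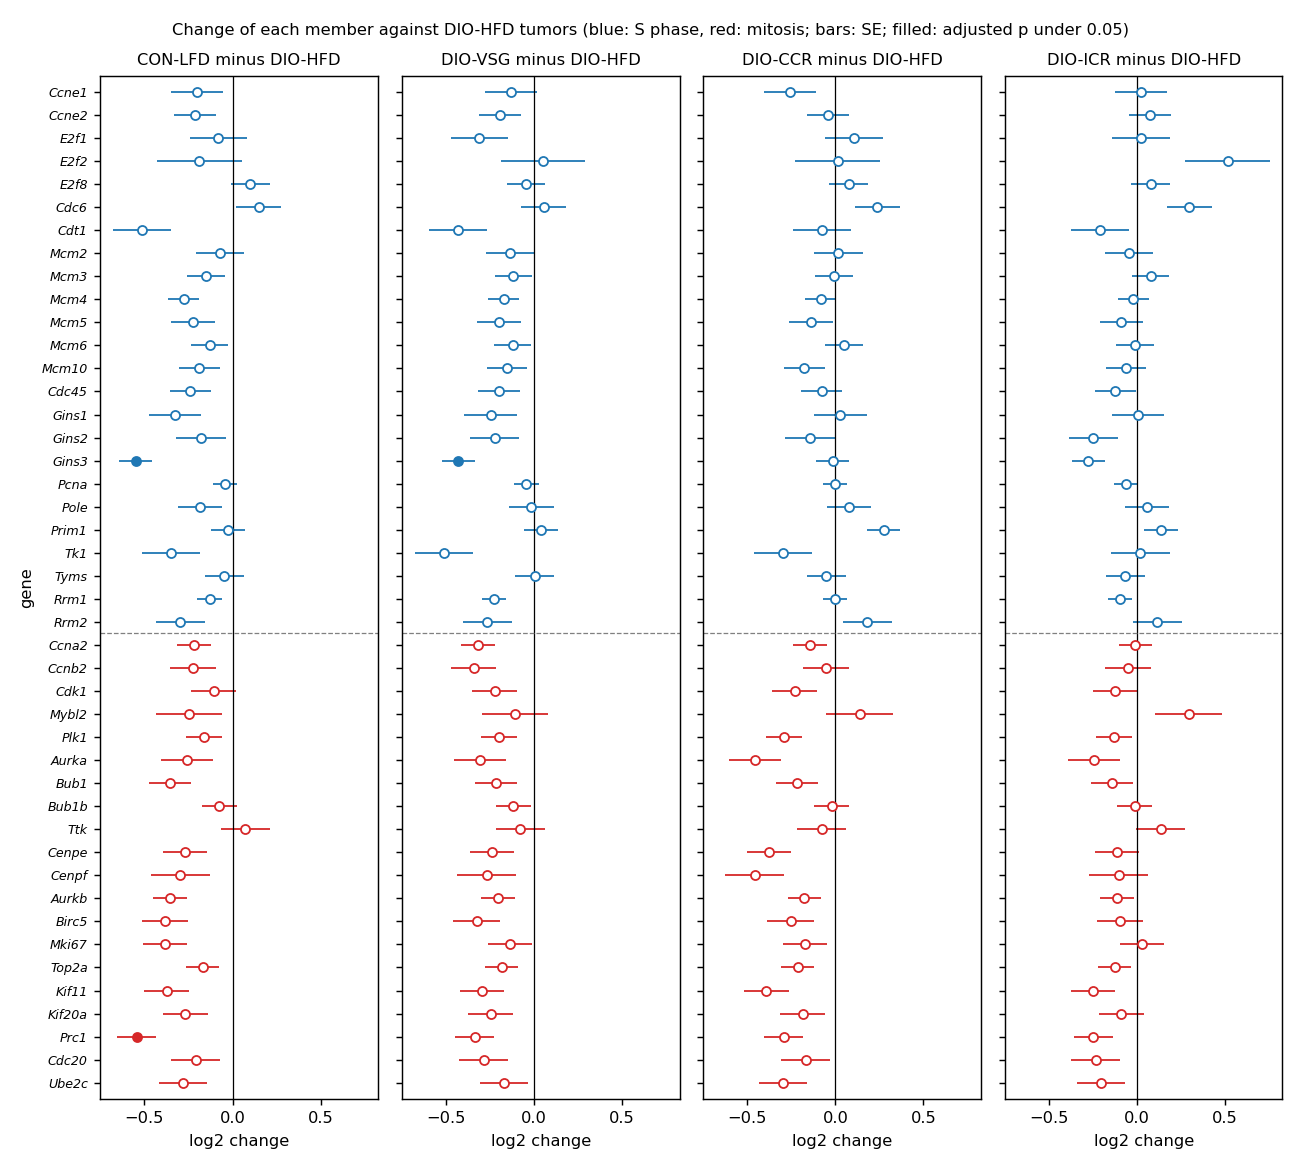
Log2 change of each of 44 members against DIO-HFD in the 4 other groups (horizontal axis), with genes in rows, replication genes in blue above the dashed line and mitosis genes in red below it; bars are SE and filled points have an adjusted p under 0.05. Filled points are Gins3 and Prc1 in CON-LFD and Gins3 in DIO-VSG, and in DIO-CCR 19 of 20 red points lie left of 0 while blue points lie on both sides.

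The 4 comparisons above share the 6 DIO-HFD tumors, so their values stand side by side with no test between them. Of the other 6 comparisons 1 member passed in 1. Gins3 was higher in DIO-CCR than in CON-LFD by 0.54 ± 0.09, 1.45-fold (interval 0.34 to 0.73, adjusted p = 0.0184), beside 0.415% of all genes passing there. The call was lost without CON-LFD 3 (adjusted p = 0.0538), in a fit of these groups alone (0.0559) and with a covariate for adipocyte (0.0887) or neutrophil genes (0.125). The adipocyte score ran from -0.12 to 3.54 in DIO-CCR and from -2.10 to 0.24 in CON-LFD. Gins1, another GINS subunit, lay with Gins3 above every CON-LFD tumor in DIO-CCR, 2 of 44 members beside 0.502% of all genes. In the same comparison 8 members were higher and 0 lower at an unadjusted p under 0.05, where 6.56% of all genes were higher. In DIO-CCR against DIO-VSG 0 members passed, beside 0.0513% of all genes, and Gins3 was at 0.41 ± 0.09 (adjusted p = 0.0932) with no overlap between the groups. Rrm2 also lay higher in all DIO-CCR tumors, at 12.89 to 13.31 (median 13.11), than in DIO-VSG, at 12.37 to 12.88 (median 12.68). That difference was 0.45 ± 0.14 (adjusted p = 0.27). These 2 of 44 members stood beside 0.323% of all genes higher without overlap, and 7 members were higher at an unadjusted p under 0.05, beside 5.42% of all genes.

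In DIO-ICR against CON-LFD 0 members passed, beside 1.57% of all genes, while 14 of 44 were higher and 0 lower at an unadjusted p under 0.05, led by Mki67, beside 7.9% of all genes higher. E2f2 alone separated these groups without overlap, 1 of 44 members beside 0.969% of all genes. Mki67 was measured at 13.32 to 13.90 (median 13.54) in DIO-ICR and at 12.77 to 13.48 (median 13.18) in CON-LFD. Its difference was 0.41 ± 0.12 (adjusted p = 0.0875), with overlap of the groups. Between these groups 5 of 7 macrophage genes and 2 of 12 adipocyte genes passed as higher in DIO-ICR, and 4 of 8 neutrophil genes as lower. The part of such cells in the change of the members was not tested. In DIO-ICR against DIO-VSG 0 members passed, beside 0.0308% of all genes, and Ccna2 lay higher in DIO-ICR, at 14.43 to 14.67, than in every DIO-VSG tumor (0.31 ± 0.10, adjusted p = 0.317), 1 of 44 members beside 0.19% of all genes. Of the members 6 were higher in DIO-ICR at an unadjusted p under 0.05, beside 4.85% of all genes. In DIO-VSG against CON-LFD 0 members passed, beside 0.0256% of all genes, and 0 had an unadjusted p under 0.05, where 9.42% of all genes did. In DIO-CCR against DIO-ICR 0 members and 0% of all genes passed, and 4 members had an unadjusted p under 0.05, beside 4.76% of all genes.

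The best known proliferation markers passed no test in the main fit, and their values bound the differences. Mki67 passed in DIO-ICR against CON-LFD with trend and robust estimation (limma adjusted p = 0.0478) and without CON-LFD 6 (0.0439). Mki67 was at 13.38 to 13.78 in DIO-HFD (median 13.49), and its difference from it was -0.38 ± 0.12 in CON-LFD (adjusted p = 0.141). For Mki67 the difference was -0.14 in DIO-VSG (interval -0.39 to 0.12) and 0.03 in DIO-ICR (interval -0.22 to 0.28). Cdk1, the kinase that starts mitosis, was at 12.43 to 12.75 in DIO-HFD and differed from it by -0.23 to -0.11 across the 4 groups. All those ranges overlapped. Mcm2, a helicase subunit, differed by -0.14 in DIO-VSG (interval -0.42 to 0.14) and 0.02 in DIO-CCR (interval -0.26 to 0.30). Pcna, the sliding clamp of the polymerases, differed by -0.06 to -0.00 across the 4 groups, with a within-group SD of 0.08, and in DIO-CCR its interval was -0.14 to 0.14. Ccne1, which encodes cyclin E1, was at 10.65 to 11.34 in DIO-HFD and differed most in DIO-CCR, by -0.26 ± 0.15 (adjusted p = 0.506).

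Several licensing and mitosis genes lay between these extremes. Cdt1, which loads the helicase at origins, was at 12.83 to 13.24 in DIO-HFD (median 13.02), at 12.33 to 12.77 in CON-LFD (median 12.50) and at 12.34 to 12.79 in DIO-VSG (median 12.62). Both sets lay below the obese tumors, with differences of -0.51 ± 0.17 and -0.43 ± 0.17 that did not pass (adjusted p = 0.139 and 0.344). In DIO-ICR Cdt1 spread from 12.16 to 13.49, wider than any other group. Mcm4, a helicase subunit, was at 12.32 to 12.59 in CON-LFD and at 12.60 to 12.84 in DIO-HFD, a difference of -0.28 ± 0.09 (adjusted p = 0.133). Aurkb, the Aurora kinase of the chromosome passenger complex, was at 12.80 to 13.14 in CON-LFD and at 13.27 to 13.44 in DIO-HFD. That difference of -0.35 ± 0.10 had an adjusted p of 0.0657, and it passed without the dimmest genes (0.0379), with trend and robust estimation (0.0345), with array weights (0.0317) and without DIO-VSG 1 (0.0463).

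The remaining groups of these members are given by role. Rrm2 was at 12.10 to 13.05 in CON-LFD (median 12.61), at 12.60 to 13.11 in DIO-HFD (median 12.96) and at 12.79 to 13.40 in DIO-ICR (median 12.98), and these groups overlapped. Tk1 was at 7.34 to 8.29 in CON-LFD (median 7.83), at 7.69 to 8.23 in DIO-CCR (median 7.83) and at 7.95 to 8.65 in DIO-ICR (median 8.07), also overlapping. Rrm1 was at 13.86 to 14.19 in CON-LFD, at 14.01 to 14.26 in DIO-CCR (median 14.18) and at 13.98 to 14.10 in DIO-ICR (median 14.04). Only DIO-VSG separated from the obese tumors for Rrm1. Prim1 was at 12.96 to 13.36 in CON-LFD (median 13.10), at 12.88 to 13.43 in DIO-VSG (median 13.20) and at 13.19 to 13.36 in DIO-ICR (median 13.28). Mcm4 was at 12.31 to 12.67 in DIO-VSG (median 12.57), at 12.34 to 12.74 in DIO-CCR (median 12.65) and at 12.45 to 12.83 in DIO-ICR (median 12.69). All of these overlapped the obese tumors. Cdt1 in DIO-CCR was at 12.52 to 13.27 (median 13.04).

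Of the mitosis genes, Ccna2 was at 14.09 to 14.59 in CON-LFD (median 14.29) and at 14.16 to 14.65 in DIO-CCR (median 14.42). Aurkb was at 12.86 to 13.42 in DIO-VSG (median 13.17), at 12.97 to 13.36 in DIO-CCR (median 13.20) and at 13.06 to 13.39 in DIO-ICR (median 13.23). Mki67 was at 13.11 to 13.78 in DIO-VSG (median 13.32) and at 13.04 to 13.56 in DIO-CCR (median 13.38). Each of these ranges overlapped that of DIO-HFD. Kif11 was at 12.93 to 13.99 in CON-LFD (median 13.39), at 13.34 to 13.81 in DIO-VSG (median 13.48) and at 13.32 to 13.69 in DIO-ICR (median 13.57), the last of which met DIO-HFD at 13.69. Cdk1 was at 12.21 to 12.83 in CON-LFD, at 11.96 to 12.74 in DIO-VSG, at 12.20 to 12.67 in DIO-CCR and at 12.23 to 12.78 in DIO-ICR. Among the replication genes kept as markers the groups overlapped throughout. Mcm2 ran from 12.15 to 13.07 over all groups, with medians of 12.77 in CON-LFD, 12.72 in DIO-HFD, 12.65 in DIO-VSG, 12.86 in DIO-CCR and 12.71 in DIO-ICR. Pcna ran from 15.67 to 16.03, with medians of 15.80, 15.82, 15.82, 15.84 and 15.77 in that order. Ccne1 ran from 10.41 to 11.52, with medians of 10.95, 11.21, 11.03, 10.91 and 11.10.

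To place each tumor, the members of a class were centred on their mean over 30 tumors and averaged. The replication score ran from 0.01 to 0.11 in DIO-HFD, from -0.32 to 0.06 in CON-LFD, from -0.36 to 0.02 in DIO-VSG, from -0.06 to 0.14 in DIO-CCR and from -0.07 to 0.26 in DIO-ICR. The mitosis score ran from 0.10 to 0.22 in DIO-HFD, from -0.32 to 0.14 in CON-LFD, from -0.30 to 0.16 in DIO-VSG, from -0.23 to 0.12 in DIO-CCR and from -0.06 to 0.18 in DIO-ICR. Obese tumors were the most alike in these members, with an SD of 0.04 in both scores, against an SD of 0.08 to 0.14 in replication and 0.08 to 0.19 in mitosis in the other groups. For mitosis genes outside the list the SD was 0.08 in DIO-HFD and 0.07 in DIO-ICR. For replication genes outside it the SD was 0.02 in DIO-HFD and 0.07 to 0.13 in the other groups. Replication minus mitosis was below 0 in all 6 DIO-HFD tumors (-0.14 to -0.03) and above 0 in 5 of 6 DIO-CCR tumors (-0.09 to 0.30). It was also above 0 in 4 of 6 DIO-ICR tumors (-0.14 to 0.15), a range that overlapped that of DIO-CCR. In CON-LFD (-0.14 to 0.15) and DIO-VSG (-0.20 to 0.12) it was above 0 in 2 of 6 tumors each.

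The lowest replication scores were those of DIO-VSG 1 (-0.36), the tumor with the most lymph node signal, and CON-LFD 5 (-0.32), 1 of the tumors with muscle genes. The lowest mitosis score was that of CON-LFD 4 (-0.32), followed by DIO-VSG 1 (-0.30) and CON-LFD 5 (-0.27). Without DIO-VSG 1 the median change in DIO-VSG was -0.11 for replication and -0.18 for mitosis. Without CON-LFD 5 the replication median in CON-LFD was -0.14. The part of other tissue in these scores was not tested beyond the fits without such tumors.

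**Figure D4:**
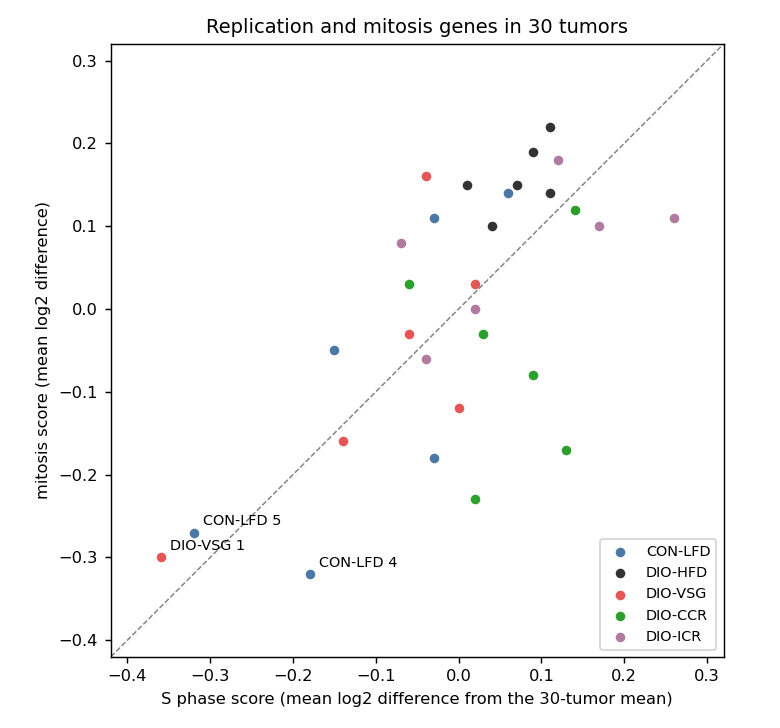
Replication (S phase) score on the horizontal axis and mitosis score on the vertical axis for 30 tumors, coloured by group, each the mean log2 difference of 24 or 20 genes from their 30-tumor means; the dashed line marks equal scores. All 6 DIO-HFD tumors lie above the line, while 5 of 6 DIO-CCR and 4 of 6 DIO-ICR tumors lie below it, and the 3 tumors named are the lowest.

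Genes of the same pathways outside the 47 were described in the same way. Of 43 other replication genes 0 passed in any comparison with DIO-HFD, and their medians were -0.13 in CON-LFD, -0.20 in DIO-VSG, 0 in DIO-CCR and -0.03 in DIO-ICR. Of 44 other mitosis genes 3 passed in CON-LFD, where 0.995% of all genes did, and 0 in the other groups, with medians of -0.22, -0.23, -0.18 and -0.12 in the same order. Nusap1, which binds spindle microtubules, was at 12.58 to 13.53 in CON-LFD and at 13.51 to 13.95 in DIO-HFD (median 13.57), and fell by 0.62 ± 0.13 (adjusted p = 0.0202). Cdc25b, the phosphatase that activates Cdk1, fell by 0.51 ± 0.13 (adjusted p = 0.0455). Racgap1, which acts at the central spindle, fell by 0.50 ± 0.12 (adjusted p = 0.0449). Cdc25c, a related phosphatase, was at -0.24 ± 0.13 (adjusted p = 0.496). Among replication genes the smallest F-test p belonged to Clspn, Timeless and Ticrr, which act at forks and at origins. Their differences in DIO-CCR were 0.18, 0.30 and 0.24, and in DIO-VSG -0.23, -0.06 and -0.20, with no adjusted p under 0.05.

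**Figure D5:**
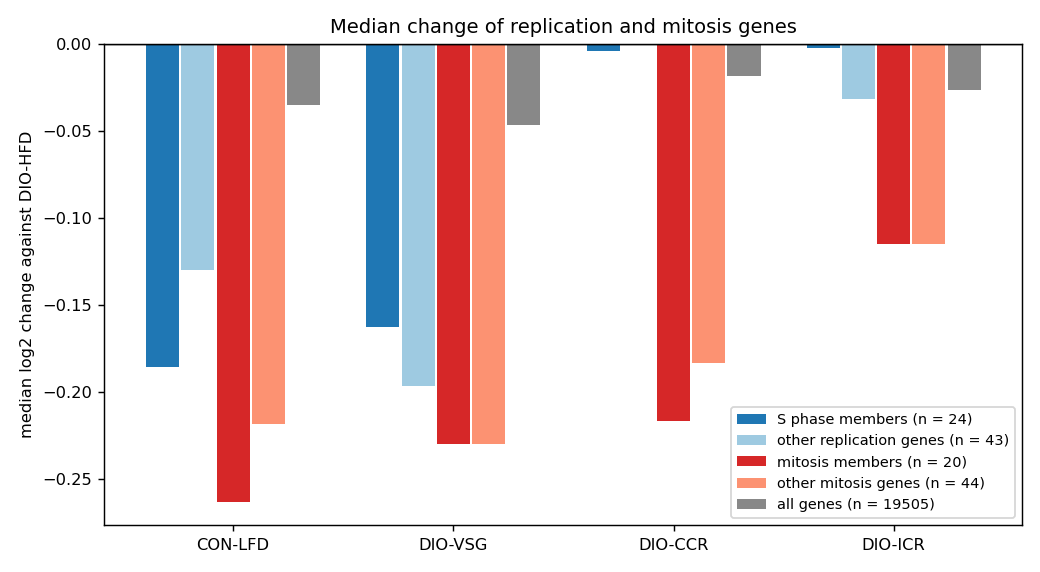
Median log2 change against DIO-HFD (vertical axis) in the 4 other groups for 24 replication members, 43 other replication genes, 20 mitosis members, 44 other mitosis genes and 19505 genes. In DIO-CCR the replication medians are -0.0042 and 0 and the mitosis medians -0.22 and -0.18, while in CON-LFD and DIO-VSG all 4 lists lie at -0.13 or lower.

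Upstream of both phases stand the G1 cyclins and kinases with the pocket proteins, and the inhibitors. Of 22 G1 cyclins, kinases, E2F and pocket protein genes 0 passed against DIO-HFD, where 0.154% to 0.995% of all genes did. Rbl1, which encodes the pocket protein p107, was higher in DIO-ICR, at 12.67 to 12.95 (median 12.84), than in CON-LFD, at 12.31 to 12.66 (median 12.38). The groups did not overlap, where 0.969% of all genes lay higher without overlap. The difference of 0.42 ± 0.10 passed (adjusted p = 0.0257), 1 of 22 genes beside 1.57% of all genes. Ccnd2, which encodes cyclin D2, was at -0.28 ± 0.10 in CON-LFD against DIO-HFD (adjusted p = 0.211), and its partner kinase Cdk6 at -0.19 ± 0.08 (adjusted p = 0.279).

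Of 16 inhibitors and p53 targets 1 passed in CON-LFD, 0 in DIO-VSG, 1 in DIO-CCR and 1 in DIO-ICR, all lower, where 0.995%, 0.154%, 0.354% and 0.461% of all genes passed. Gadd45a, a growth arrest gene induced by DNA damage, was at 11.68 to 12.42 in DIO-HFD (median 12.02), at 10.99 to 11.51 in DIO-CCR (median 11.13) and at 10.84 to 11.62 in DIO-ICR (median 11.12). Both restricted groups lay below all obese tumors. Gadd45a fell by 0.83 ± 0.19 in DIO-CCR (adjusted p = 0.0448) and by 0.89 ± 0.19 in DIO-ICR (adjusted p = 0.0276). It was also lower in sign in CON-LFD and DIO-VSG than in DIO-HFD, and passed in neither. Between either restricted group and CON-LFD or DIO-VSG, 0 of the 16 genes passed. Sesn1, a p53 target that restrains mTORC1, was at 8.84 to 9.53 in CON-LFD and at 9.87 to 10.57 in DIO-HFD. It fell by 0.93 ± 0.20 in CON-LFD (adjusted p = 0.0216). Cdkn2c, an inhibitor of the cyclin D kinases, was higher by 0.57 ± 0.20 in CON-LFD and by 0.60 ± 0.20 in DIO-CCR, neither of which passed (adjusted p = 0.194 and 0.195).

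Changes of members with and without a motif are given without a test. Replication genes with an E2F core (10) changed by a median of -0.14 in CON-LFD, -0.12 in DIO-VSG, 0.01 in DIO-CCR and 0.03 in DIO-ICR, and those without (9) by -0.19, -0.15, -0.05 and -0.04. Mitosis genes with a CHR (14) had medians of -0.24, -0.22, -0.22 and -0.13 in that order, and Mybl2, Cenpe and Birc5, without it, -0.27, -0.24, -0.26 and -0.10. For these motifs the pairs of medians lay close together in each group. Members with and without CCAAT lay further apart in places, with medians of -0.23 in DIO-CCR and -0.12 in DIO-ICR for 15 mitosis genes that hold it and -0.06 and 0.10 for Mybl2 and Birc5, which do not. Replication genes with CCAAT (13) were at -0.14 in DIO-VSG and those without (6) at -0.22. Gins3, a replication gene with both an E2F core and a CHR in the window shown above, was at -0.01 in DIO-CCR. The 14 mitosis genes with a CHR ran from -0.46 to -0.02 there, with Prc1, Mki67 and Kif11 at -0.29, -0.17 and -0.39.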

How the data were processed

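The authors extracted tumor RNA with TRIzol and columns, prepared it with a WT PLUS kit for Mouse Clariom S peg plate arrays read on a GeneTitan and deposited log2 expression values made by signal space transformation and robust multi-array averaging in Transcriptome Analysis Console 4.0.2. Which genome build the arrays were designed on was not stated in the sources at hand. Of 22206 probe sets 19572 had 1 gene symbol in the platform annotation and 2634 had none. The brightest probe set was kept for 55 symbols with several, which left 19505 genes, and 0 members had more than 1 probe set. Values were used as the authors deposited them. Arrays carry no read depth, so their number limits precision.

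Group means were fitted over all 30 arrays with limma 3.58.1 in R 4.3.3 (25 residual degrees of freedom, prior 3.43), with empirical Bayes without trend or robust weights. P-values were adjusted by Benjamini-Hochberg over all 19505 genes for an F-test and each of 10 comparisons, and passing means an adjusted p under 0.05. Values after ± are SE of a difference. Scores and list medians carry no test. Members, lists and tests were chosen with earlier results of these data known. Members given with values of each group are the 12 with the smallest F-test p (Mki67 among them), plus Cdk1, Mcm2, Pcna and Ccne1. From each other pathway list the 3 genes with the smallest F-test p are named, with levels or changes of some groups only. Other members and genes were named after their values were seen. Alternatives were quantile normalization, median centring, a filter that dropped the dimmest 30% of genes, a fit on every probe set, trend and robust estimation, array weights, a fit of the 2 groups alone, leaving out tumors with lymph node or muscle genes, the adipocyte score as a covariate and leaving out each array. The neutrophil score as a covariate was added after the data were seen. The labels give no batch, and tumors are separate animals, so p-values rest on the spread between animals. Promoter windows came from RefSeq on GRCm38.p6 and were searched with Python 3.11.15.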

Additional observations from a re-analysis of the deposited data

Results flagged for a closer look

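In 10 of 230 sets of 6 tumors (44 members and 2 scores in 5 groups), 1 tumor lay apart from the other 5 by more than Dixon's 95% limit, a share of 4.35% where chance gives about 1 in 20. In DIO-VSG 1, the tumor with the most lymph node signal, this held for Mcm6 (12.99, others 13.50 to 13.63) and Ccna2 (13.98, others 14.22 to 14.33). In DIO-HFD it held for Ccne1 in tumor 1 (10.65, others 11.10 to 11.34), Mcm3 in tumor 3 (13.52, others 13.22 to 13.32), E2f8 in tumor 4 (14.94, others 14.61 to 14.71), Bub1 in tumor 5 (13.02, others 13.27 to 13.41) and Ccne2 in tumor 6 (11.70, others 11.29 to 11.44). In DIO-ICR it held for Cdc20 in tumor 1 (11.22, others 11.70 to 11.89) and Cdc45 in tumor 6 (10.87, others 11.28 to 11.46). In CON-LFD it held for E2f2 in tumor 5 (6.17, others 6.75 to 7.07). No tumor had more than 2 such genes.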

How the results depend on the processing

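The list medians stayed on their side of 0 under all 11 alternatives for mitosis genes, and for replication genes in CON-LFD (-0.244 to -0.139) and DIO-VSG (-0.215 to -0.114), but those in DIO-CCR (-0.0308 to 0.0136) and DIO-ICR (-0.0525 to 0.0956) lay on both sides of it. Calls depended more on settings. The F-test called 2 members instead of 1 without the dimmest genes, with trend and robust estimation and with array weights, where Prc1 joined. In CON-LFD against DIO-HFD the count was 1 in the fit of 2 groups, 0 with the neutrophil score and 3 in the same 3 settings, where Aurkb joined, instead of 2. In DIO-VSG against DIO-HFD it was 0 instead of 1 with quantile normalization, median centring, all probe sets, trend and robust estimation, 2 groups, without lymph node tumors, without muscle tumors and with the neutrophil score. In the other 6 comparisons it was 2 with trend and robust estimation, where Mki67 in DIO-ICR against CON-LFD joined, and 0 with 2 groups, the adipocyte score or the neutrophil score, instead of 1. In DIO-CCR and DIO-ICR against DIO-HFD it was 0 throughout.

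Leaving out each array gave 1 to 2 members by the F-test, 2 to 3 in CON-LFD, 0 to 1 in DIO-VSG, 0 in DIO-CCR and DIO-ICR and 0 to 2 in the other comparisons. The replication medians ran from -0.229 to -0.139 in CON-LFD, -0.207 to -0.11 in DIO-VSG, -0.0282 to 0.009 in DIO-CCR and -0.0462 to 0.0292 in DIO-ICR, and the mitosis medians from -0.321 to -0.193, -0.276 to -0.183, -0.244 to -0.19 and -0.142 to -0.0783. No paired analysis was possible because the labels give no replicate numbers shared by the groups. Median centring moved the median of all genes by at most 0.0767 in a comparison. With 6 tumors a group, the median standard error of a member's change was 0.13, which limits what could pass.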
